A study of Mus musculus with 14 samples.

Results

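The genes described here are the replication-dependent histone genes of the mouse, which lie in 4 clusters. They were chosen as the symbols of the deposited gene tables that begin with Hist1h, Hist2h, Hist3h or Hist4h, and no measured value entered that choice. There were 69 such symbols among 53321 distinct symbols, spread over 62 of the 81411 loci of each table. By class they were 6 linker histone H1 genes, 19 H2A, 19 H2B, 12 H3 and 13 H4 genes. In GENCODE M21 (GRCm38) the same name pattern covers 70 genes, 67 protein coding and 3 pseudogenes. Of these, 56 are Hist1 genes on chromosome 13, 10 Hist2 on chromosome 3, 3 Hist3 on chromosome 11 and 1, Hist4h4, on chromosome 6. The Hist1 pseudogene Hist1h2al lies apart from the cluster, at position 51202727.

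RNA came from the hippocampus of 14 mice of strain C57BL6 that the labels give as 30 days old. The genotypes were KMT2D+/+ and KMT2D+/bGeo, the latter a heterozygous allele of Kmt2d, a histone H3 lysine methyltransferase, and called mutant below. Both genotypes received either TAK-418, which inhibits LSD1, an enzyme that removes methyl groups from histone H3, at 1 mg/kg/day by gavage, or its methylcellulose vehicle alone, for 2 weeks from 2 weeks of age. The libraries were 3 from wild-type vehicle mice, 3 from mutant vehicle mice, 5 from wild-type TAK-418 mice and 3 from mutant TAK-418 mice, where the series description gives 3 to 4 per group. Replicate numbers below follow the order of deposition and only name a library. The labels do not say more of how the mice were drawn, so a p-value computed here weighs a group difference against the spread between these libraries. RNA was taken from whole tissue, so fewer cells of a type and less RNA per cell cannot be told apart.

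Replication-dependent histone genes encode the core histones and H1 that package newly copied DNA, and their mRNAs are known to peak in S phase. Most have no intron. Their mRNAs are unusual in ending not in a poly(A) tail but just after a conserved stem-loop, which the stem-loop binding protein SLBP holds and at which the U7 snRNP directs cleavage. Some members are also known to give polyadenylated mRNAs outside S phase, through a poly(A) site downstream of the stem-loop or through splicing. The labels name a NEBNext Ultra and an UltraII library kit. Whether poly(A)-tailed RNA was selected before library construction is not given in the sources used here, and it bears on every value below, since a library of tailed RNA holds few mRNAs that end at a stem-loop.

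The stem-loop is shown first because it tells the members apart by how their annotated transcripts end. It was searched as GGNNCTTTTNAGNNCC, on the transcript strand, in all annotated transcripts. It was present in 46 of 78 member transcripts (59.0%), from 44 of 70 genes, against 124 of 141767 transcripts of the whole annotation (0.0875%). Of the 26 member genes without it, 13 have annotated transcripts that all end at the stop codon, so that their 3′ part could not be searched. The motif began 21 to 58 bases after the stop codon, with a median of 31. The stretches below run 5′ to 3′ on the gene's strand, with the 16 bases of the stem-loop in capitals and up to 5 bases on either side, for members described below and, as Hist1h3e, for 1 further form of the H3 genes.
Hist1h1c, chr13:23739507-23739532, + strand: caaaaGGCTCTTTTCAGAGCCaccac
Hist3h2a, chr11:58955167-58955192, + strand: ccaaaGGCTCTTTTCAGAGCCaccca
Hist1h2ao, chr13:21810893-21810918, + strand: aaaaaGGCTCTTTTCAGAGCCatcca
Hist3h2ba, chr11:58949344-58949369, + strand: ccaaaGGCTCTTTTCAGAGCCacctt
Hist1h2be, chr13:23585526-23585551, - strand: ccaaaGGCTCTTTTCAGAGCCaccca
Hist2h3c2, chr3:96238480-96238505, - strand: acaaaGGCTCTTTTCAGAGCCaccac
Hist1h3e, chr13:23561898-23561923, - strand: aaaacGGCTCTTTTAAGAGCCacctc
Hist1h4i, chr13:22040961-22040986, - strand: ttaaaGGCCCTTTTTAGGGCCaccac
Hist1h4h, chr13:23531453-23531478, + strand: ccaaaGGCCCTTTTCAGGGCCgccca
Hist1h4j, chr13:21735432-21735457, + strand: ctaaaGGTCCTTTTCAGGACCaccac

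The stem separated H4 from the other classes. Over the 44 genes, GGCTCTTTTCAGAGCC occurred in 26 (3 H1, 10 H2A, 8 H2B and 5 H3), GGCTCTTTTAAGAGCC in 6 (1 H1, 2 H2B and 3 H3) and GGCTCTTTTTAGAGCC in 1 H2A gene. The 11 H4 genes held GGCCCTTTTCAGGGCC in 7, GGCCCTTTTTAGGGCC in 2 and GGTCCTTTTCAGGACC in 2, and shared none of these forms with another class. The members split evenly in what follows the stem-loop. In 22 genes the longest annotated transcript ends under 100 bases after it, with a median of 32, as in Hist1h4m (3 bases), Hist1h2ao (31 bases) and Hist1h4h (46 bases). In the other 22 it runs at least 100 bases further, as in Hist3h2ba (169 bases), Hist1h4i (330 bases), Hist2h3c2 (377 bases), Hist1h1c (840 bases), Hist2h4 (1257 bases), Hist3h2a (1643 bases) and Hist1h2be (1861 bases). An AATAAA poly(A) signal lay within 40 bases of the transcript's end in 9 genes with a stem-loop, and these were all among the genes with the longer run.

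Promoters were compared over the 62 members with a RefSeq sequence (GRCm38.p6, 63 distinct promoters, from 250 bases before to 50 after the start), with motifs counted on both strands. The octamer ATTTGCAT, which the POU factor OCT1 binds, was in 7 of 18 H2A and 7 of 17 H2B promoters, and in 0 of 6 H1, 0 of 10 H3 and 0 of 12 H4 promoters, against 1.74% of 32851 promoters. A CCAAT box was in all 6 H1, 18 H2A, 17 H2B and 10 H3 promoters but in 3 of 12 H4 promoters, against 37.4% of all promoters. TATAAA was in 35 of the 63, or 55.6%, against 13.6%. H2A and H2B genes often lie head to head, so that a pair of genes can share 1 promoter. The sequences of such pairs overlap, as for Hist1h2ae and Hist1h2bg, and a motif in the overlap was counted for both classes. The 250 bases before the start of Hist3h2ba, whose locus had the highest deposited mean FPKM of the 62, follow (chr11:58948661-58948910, + strand) because they hold 4 CCAAT boxes and 2 TATAAA matches, counting both strands, in capitals.
Hist3h2ba: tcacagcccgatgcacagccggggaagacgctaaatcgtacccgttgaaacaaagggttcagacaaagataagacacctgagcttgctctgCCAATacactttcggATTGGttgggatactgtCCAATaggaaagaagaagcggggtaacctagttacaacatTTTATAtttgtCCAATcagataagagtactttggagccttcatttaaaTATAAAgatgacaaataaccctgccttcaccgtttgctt

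Relative depth, from the step between values, reached 168 M (M for mega) in wild-type TAK-418 replicate 1, and the other 13 libraries had 35.1 to 60.0 M. All 6 hippocampal neuron markers were listed in each wild-type vehicle library, and 5 or 6 of them in every other library. Kmt2d overlapped between genotypes, at a scaled abundance of 13.8 to 14.3 in the wild-type vehicle and 10.7 to 14.5 in the mutant vehicle libraries, and at 12.6 to 18.1 and 9.38 to 14.6 under TAK-418. A gene trap need not lower reads outside the deleted or trapped part, so this is no full check of the genotype. The choroid plexus markers, 5 to 8 of 8 listed per library, summed to 21.1 to 6514 in the wild-type vehicle, 45.4 to 5073 in the mutant vehicle, 16.4 to 44.3 in the wild-type TAK-418 and 22.04 to 612 in the mutant TAK-418 libraries.

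Most of the clustered histone genes were at or near 0 in this tissue, and a few were not. The deposited tables give 1 FPKM value per group (fragments per kilobase per M fragments, from the libraries of the group together), so they carry no spread between mice. Over the 4 groups' mean, 9 of the 62 loci were at 0, 40 lay above 0 and below 1 FPKM, and 13 were at 1 FPKM or more. The median locus was at 0.0928 FPKM. The 4 highest loci held 73.1% of the members' summed 136 FPKM. For scale, the 12 loci of the replacement histone genes ranged from 2.48 to 158 FPKM with a median of 34.6. Most of these genes are expressed outside S phase and give mRNAs with poly(A) tails. Copies of 1 class are nearly identical in their coding sequence, and how the authors divided reads between copies is not stated, so the level of any single low copy is uncertain.

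**Figure D1:**
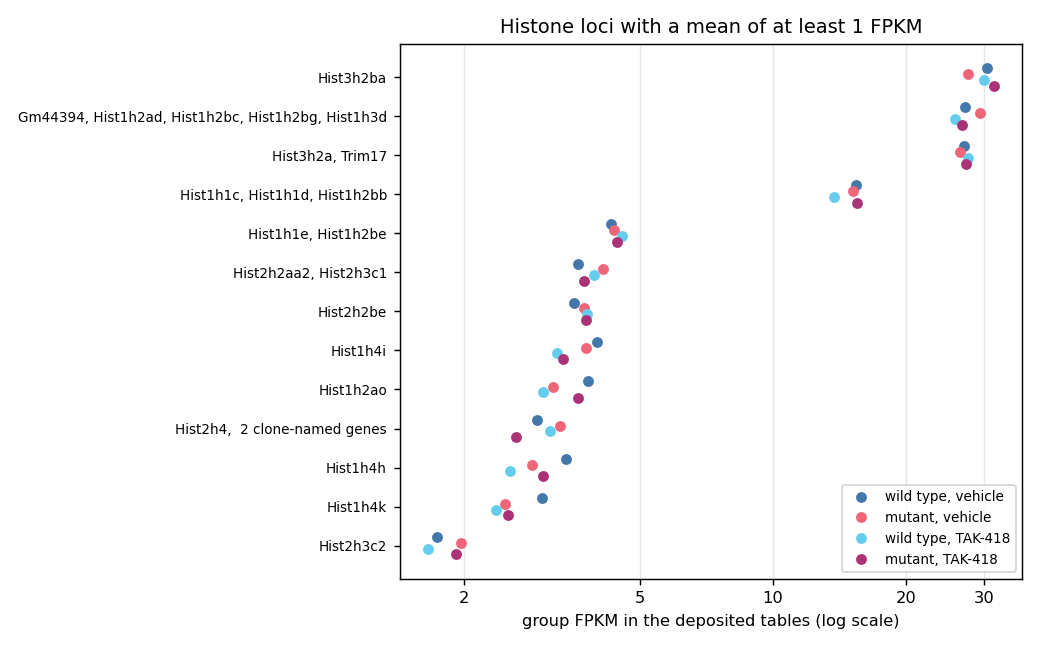
Deposited FPKM of the 4 groups (x axis, log scale) for the 13 histone loci with a mean of at least 1 FPKM (y axis), 1 point per group and no error bar since the tables hold 1 value per group. The 4 highest loci lie between 13.8 and 31.6 FPKM in every group and the other 9 between 1.66 and 4.54, and the points of a locus lie close together.

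Among the linker histones, which bind DNA between nucleosomes, the highest values were those of 2 joint loci that also hold H2B genes. The locus that joins Hist1h1c, Hist1h1d and the H2B gene Hist1h2bb was at 15.4 FPKM in wild-type vehicle, 15.1 in mutant vehicle, 13.8 in wild-type TAK-418 and 15.5 in mutant TAK-418. The locus of Hist1h1e and Hist1h2be was at 4.29, 4.38, 4.54 and 4.45 FPKM in the same order. Every assembled transcript on Hist1h1e was assigned to Hist1h2be, so this value cannot be read as the level of Hist1h1e. The 3 H1 genes with a locus of their own were far lower: Hist1h1b was at 0.0725 FPKM in wild-type and 0.0874 in mutant vehicle, Hist1h1a at 0.0387 and 0.0952, and the testis gene Hist1h1t at 0.0541 and 0.0491. Joint loci here and below are named although the naming rule puts loci of 1 symbol first.

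H2A pairs with H2B in the nucleosome. Of the loci that hold H2A genes alone among the members, the highest joins Hist3h2a and the ubiquitin ligase gene Trim17. This joint locus was at 27.0 FPKM in wild-type vehicle, 26.4 in mutant vehicle, 27.6 in wild-type TAK-418 and 27.3 in mutant TAK-418. Its value cannot be read as the level of Hist3h2a, to which transcripts were assigned in only 2 libraries. Hist1h2ao followed at 3.81, 3.19, 3.02 and 3.61 FPKM. Hist1h2ac was at 0.620, 0.819, 0.604 and 0.723 FPKM and Hist1h2ae at 0.337, 0.311, 0.251 and 0.373. Of the 15 loci that hold H2A genes alone among the members, 5 were at 0 in all groups and 8 more lay below 1 FPKM.

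The H2B class held the highest locus of the set. Hist3h2ba was at 30.5 FPKM in wild-type vehicle, 27.6 in mutant vehicle, 30.1 in wild-type TAK-418 and 31.6 in mutant TAK-418, and another locus under the same symbol was at 0.157 to 0.692. The joint locus of Hist1h2bc, Hist1h2bg, Hist1h2ad, Hist1h3d and Gm44394 was at 27.2, 29.4, 25.8 and 26.7 FPKM. Hist2h2be, whose annotated transcript holds no stem-loop motif and ends 22 bases after the start of an AATAAA signal, was at 3.54, 3.73, 3.79 and 3.78 FPKM. Hist1h2bj was at 0.203 and 0.312 FPKM in wild-type and mutant vehicle. Hist3h2ba and Hist3h2a are neighbours on chromosome 11, and the highest group exceeded the lowest by 1.14 times for the first and 1.04 times for the locus of the second.

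Among the H3 genes, Hist2h3c2 was at 1.74 FPKM in wild-type vehicle, 1.97 in mutant vehicle, 1.66 in wild-type TAK-418 and 1.92 in mutant TAK-418, and the other 9 loci of H3 alone lay below 1 FPKM. Hist1h3i was at 0.134 and 0.0439 FPKM in wild-type and mutant vehicle, and Hist2h3b at 0.0750 and 0.221. H4, the partner of H3 in the core tetramer, had 4 loci at 1 FPKM or more. Hist1h4i was at 3.99, 3.77, 3.25 and 3.34 FPKM, Hist1h4h at 3.41, 2.85, 2.54 and 3.02, and Hist1h4k at 3.01, 2.48, 2.36 and 2.52, with the groups in the same order. The fourth was the joint Hist2h4 locus, at 2.92, 3.30, 3.12 and 2.62 FPKM. All 3 single H4 genes were highest in wild-type vehicle, and with 1 value per group this order has no error.

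Level and annotated 3′ end were set side by side for the 29 members with a stem-loop and a locus of their own. The 12 with at least 100 bases after the stem-loop had a median of 0.319 FPKM and a highest value of 30.0, with 3 at 1 FPKM or more. The 17 with a shorter run had a median of 0.0713 and a highest value of 3.41, with 2 at 1 FPKM or more. The rank correlation across these genes, which are not independent and which share their libraries, was 0.31. Of the 22 loci of 1 symbol whose transcript holds no motif, 2 were at 1 FPKM or more.

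**Figure D2:**
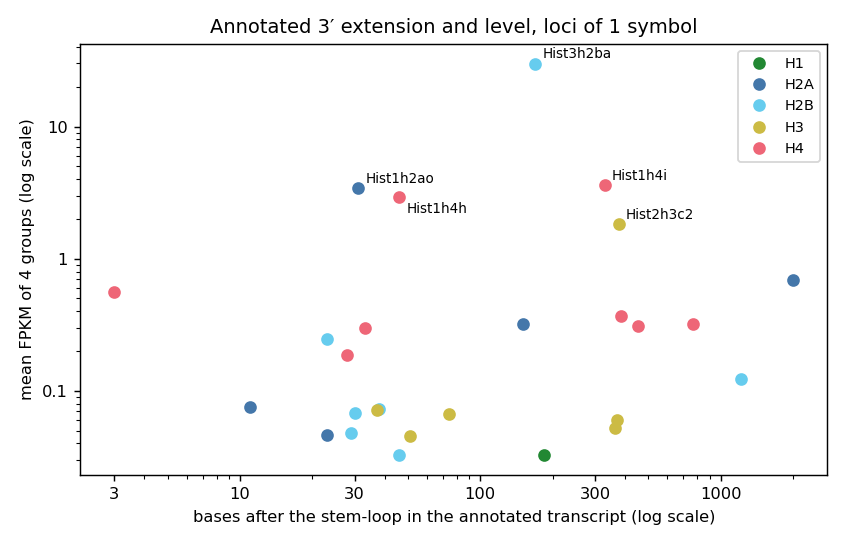
Bases after the stem-loop in the longest annotated transcript (x axis, log scale) against the mean FPKM of the 4 groups (y axis, log scale), 1 point per member with a stem-loop and a locus of its own, colored by histone class; members at 0 are not drawn. Hist3h2ba stands highest, and the 5 named members are those at 1 FPKM or more, with Hist1h2ao and Hist1h4h ending 31 and 46 bases after the stem-loop.

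No member locus passed the authors' threshold in any deposited table. Between the vehicle groups, the authors' deposited table gave a q-value under 0.05 to 0 of 24 tested member loci and to 0.224% of all 32966 tested loci. In the authors' deposited table of the TAK-418 groups the count was 0 of 28 against 0.218%. Mutant TAK-418 against wild-type vehicle gave 0 of 26 against 0.324% in the authors' deposited table, and mutant vehicle against wild-type TAK-418 gave 0 of 26 against 0.611%. A share this small would give less than 1 call in a list of this size, so a count of 0 says little about the list. The other 34 to 38 member loci per table were not tested by the authors. The vehicle and TAK-418 tables share no group with each other, nor do the 2 tables that cross the treatments, and any other pair of tables has 1 group in common. The authors' tables hold no comparison of TAK-418 with vehicle within a genotype.

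At an unadjusted p under 0.05 between the vehicle groups, the authors' deposited table listed 2 of 24 member loci (8.33%, against 4.32% of all loci), both H4 genes and both higher in mutants. Hist1h4j was at 0.215 FPKM in wild types and 0.538 in mutants (p = 0.0304, q = 0.798 in the authors' deposited table), and Hist1h4m at 0.288 and 1.02 (p = 0.0449, q = 1.00). Under TAK-418 the authors' deposited table listed 0 of 28 against 4.1%, with Hist1h4j at 0.360 FPKM in wild types and 0.357 in mutants and Hist1h4m at 0.331 and 0.585. Mutant TAK-418 against wild-type vehicle gave 1 of 26 against 4.49% in the authors' deposited table, Hist1h4f, at 0.170 and 0.588 FPKM (p = 0.0498, q = 1.00). Mutant vehicle against wild-type TAK-418 gave 1 of 26 against 6.48%, Hist1h4m, at 0.328 and 1.02 FPKM (p = 0.0473, q = 0.695 in the authors' deposited table). These 3 H4 genes were named after their values were seen.

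The loci were also described by direction, apart for the 13 at 1 FPKM or more and those below. Of the 13, 6 (46.2%) were higher in mutants under vehicle, against 49.6% of all loci in that range, and 8 (61.5%) under TAK-418, against 55.2%. Their sum was 130 FPKM in wild-type and 128 in mutant vehicle and 125 and 130 under TAK-418, and the highest group exceeded the lowest by a median of 1.14 times and at most 1.34 times. Over all loci at 1 FPKM or more that median was 1.15 times. Of the lower loci, 39 had a value in either vehicle group, and 29 of these (74.4%) were higher in mutants against 52.4% of all loci in the same range. Their sum was 5.47 FPKM in wild-type and 9.39 in mutant vehicle, a ratio of 1.72, where the ratio over all loci in that range was 0.986. Under TAK-418, 30 of 39 (76.9%) were higher in mutants against 70.6% of all such loci, and their sum was 5.25 and 8.997 FPKM, a ratio of 1.71 against 1.69. On the log2(FPKM + 0.09) scale the median difference of the low members was 0.53 under vehicle against 0.03 for all low loci, and 0.42 under TAK-418 against 0.23. Mutant TAK-418 against wild-type vehicle gave 29 of 39 higher (74.4%) against 50.3%, with a ratio of sums of 1.65 against 0.957. Mutant vehicle against wild-type TAK-418 gave 33 of 39 (84.6%) against 69.8%, with a ratio of 1.81 against 1.74. In all 4 tables the share of low members that were higher in mutants lay above that of all low loci, by the least in the TAK-418 pair, and differences between the tables were not tested.

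By class, the low H4 loci summed to 1.501 FPKM in wild-type vehicle, 3.73 in mutant vehicle, 1.58 in wild-type TAK-418 and 2.81 in mutant TAK-418, with 7 of 8 higher in mutants under each treatment. The low H3 loci summed to 0.384, 0.984, 0.370 and 0.859 FPKM, with 8 and 7 of 9 higher. The H2B loci summed to 1.99, 2.69, 1.95 and 3.16, with 8 of 11 higher under each treatment. The H2A loci summed to 1.32, 1.47, 1.02 and 1.77, with 3 and 6 of 8 higher, and the H1 loci to 0.165, 0.232, 0.147 and 0.133, with 2 and 1 of 3 higher. In both pairs of groups, which share no library, 23 of 40 low member loci (57.5%) were higher in mutants, against 31.6% of 46018 low loci. These counts include loci at 0 in both groups of a pair. Of the 46018, 41294 had a value in the vehicle pair and 43435 in the TAK-418 pair, against 39 of the 40 member loci in each. This lowers the share of all low loci more than that of the members. The range below 1 FPKM was chosen after the values were seen, each value pools the libraries of a group, and none of these counts has a test.

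**Figure D3:**
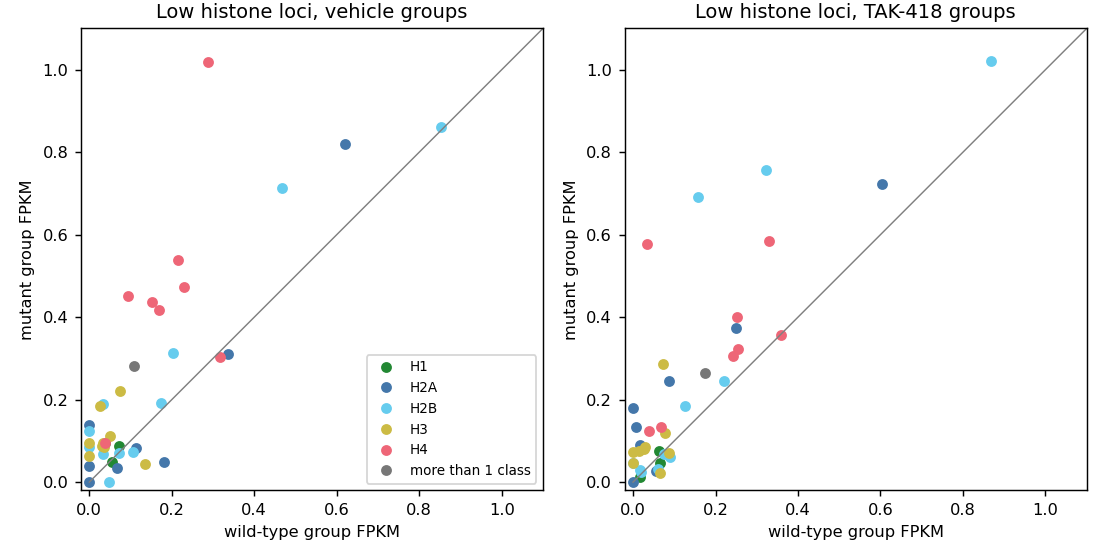
Deposited FPKM of the wild-type group (x axis) against the mutant group (y axis) for the 40 member loci with a mean above 0 and below 1 FPKM, in the vehicle groups (left) and the TAK-418 groups (right), 1 point per locus colored by class; the line marks equal values. Under vehicle 29 of the points lie above the line and under TAK-418 30, with the H4 loci among the farthest from it.

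Other RNAs without a poly(A) tail were higher in mutants in the same tables, and the assemblies put them high in 1 library of each mutant group. From a list of 22 such genes, the authors' deposited tables tested 13 loci in the vehicle pair and 15 in the TAK-418 pair. They gave a q-value under 0.05 to 5 and 6 of these, against 0.224% and 0.218% of all loci. All were higher in mutants. Rny1, called in both pairs, had a value in no library, so its spread between libraries cannot be seen. The 7SK RNA Rn7sk was at 23.5 FPKM in wild-type and 668 in mutant vehicle, and at 20.8 and 506 under TAK-418. The U1 gene Rnu1a1 was at 40.5 and 2330 FPKM and then 53.4 and 1766, and the U2 gene Rnu2-10 at 31.4 and 1655 and then 26.0 and 1160. The RNase MRP RNA Rmrp was at 5.03 and 121 FPKM under vehicle and did not pass (q = 1.00 in the authors' deposited table). The locus of Rpph1, the RNA of RNase P, was at 4.19 and 116. By limma over the libraries, 0 of the 5 genes of the list that could be tested passed in any contrast (smallest adjusted p = 0.576), and 1 had an unadjusted p under 0.05 in some contrast. In single contrasts 4.38% to 9.24% of all genes had one.

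By library, the assemblies put the same RNAs high in mutant vehicle replicate 1 and mutant TAK-418 replicate 2. Rn7sk had a scaled abundance of 24.7 and 15.3 there and of 0 to 1.07 in the other 12 libraries. Rnu1a1 was at 15.5 and 10.1 against 0 to 1.35, Rnu2-10 at 15.8 and 9.43 against 0 to 1.46, Rpph1 at 3.40 and 2.49 against 0 in the rest, and Rmrp at 2.88 and 2.12 against 0 in the rest. Over the whole list without the long RNAs Malat1 and Neat1, the sum was 0.549 to 1.96 in wild-type vehicle, 1.91 to 6668 in mutant vehicle, 0 to 2.83 in wild-type TAK-418 and 0.458 to 40.2 in mutant TAK-418 libraries, and 11 of the 22 genes had a value in no library. In mutant vehicle replicate 1 Rn7s1 (2169) and Rn7s2 (4436) made up most of the sum, which was 63.2 without them. The authors' deposited table lists their loci at 0.262 and 0.392 FPKM in mutant vehicle, far below these abundances, and gives no test for either. Few assembled transcripts were assigned to the low histone loci, and those lying on Hist1h2bj or Hist2h3b went to another gene or to none. The part of these 2 libraries in the group values of the histones was not tested.

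**Figure D4:**
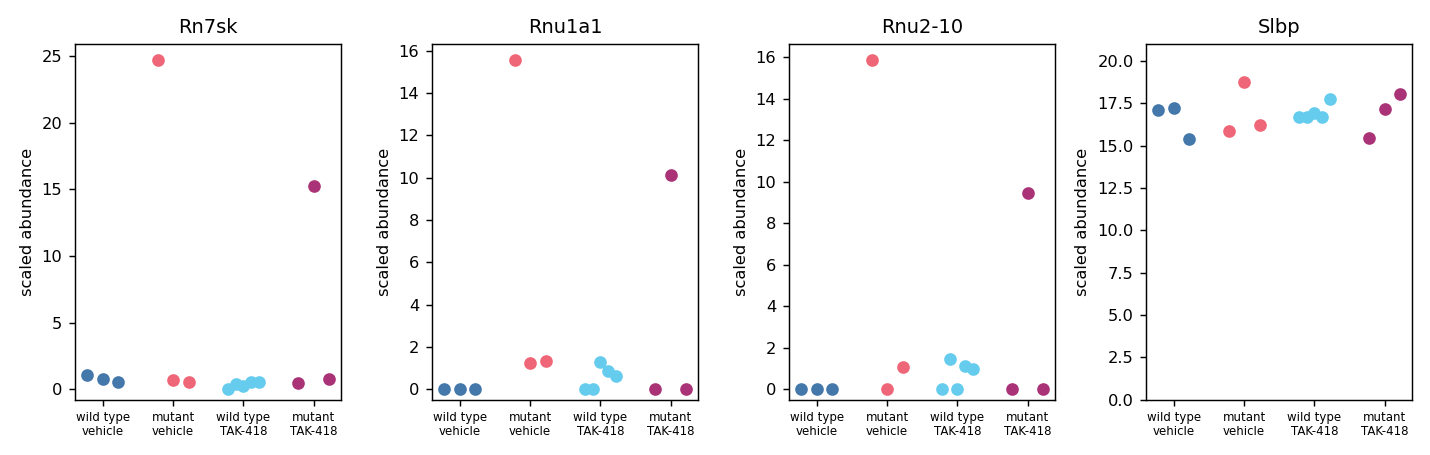
Scaled abundance (y axes, linear) of Rn7sk, Rnu1a1, Rnu2-10 and, for comparison, the mRNA of stem-loop binding protein Slbp in each of the 14 libraries, 1 point per library, grouped by genotype and treatment. Mutant vehicle replicate 1 and mutant TAK-418 replicate 2 stand above the other 12 libraries for the 3 small RNAs, and Slbp lies between 15.4 and 18.7 in all 14.

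The assembled transcripts give values for single mice, on another scale. Each carries an abundance score near the FPKM scale, but not where a transcript has 1 exon and no spliced transcript of the library overlaps it, here called isolated. For genes annotated without an intron, the abundance of isolated transcripts was a median of 0.0440 times the deposited group FPKM (564 gene and library pairs, quartiles 0.0343 and 0.0607). Single-exon transcripts overlapped by a spliced one were at 1.11 times (237 pairs), and spliced transcripts of all genes at 1.25 times. Hist1h1c shows this within 1 gene. Its single-exon transcript had an abundance of 0.548 to 0.729 in 9 libraries where it was isolated and of 13.2 to 16.9 in 4 libraries where a spliced transcript overlapped it, and it was missing in wild-type vehicle replicate 1. The 4 were wild-type vehicle replicate 2, wild-type TAK-418 replicates 1 and 2 and mutant TAK-418 replicate 1. A group difference of a member with isolated transcripts therefore mixes the kind of assembled transcript with its level. The deposited group values for Hist1h1c's locus differed by at most 1.13 times.

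Assembled transcripts were assigned to 14 members in any library, spliced ones only where they share an annotated intron (the read-through from Hist3h2a described below counts to Trim17), with 3 to 7 of them per library, and 2 of the 14, Hist1h2bc and Hist1h2be, had one in all 14 libraries. Both were spliced, unlike most of the family. After scaling, Hist1h2bc was at 78.0, 67.9 and 73.0 in the wild-type vehicle libraries and at 83.1, 63.2 and 66.8 in the mutant vehicle libraries. It was at 37.3, 79.7, 74.0, 76.9 and 67.4 in the wild-type TAK-418 libraries and at 62.6, 72.3 and 67.8 in the mutant TAK-418 libraries. The groups overlapped, and the lowest value by far was that of wild-type TAK-418 replicate 1, the deepest library. The joint locus that holds Hist1h2bc was at 25.8 to 29.4 FPKM in the deposited tables, below all of these abundances, and the reason was not tested. Under vehicle the wild-type mean was 73.0 ± 5.05 (SD, n = 3), and the mutant mean was 71.0 ± 10.6 (SD, n = 3). Under TAK-418 the wild-type mean was 67.1 ± 17.3 (SD, n = 5), and the mutant mean was 67.5 ± 4.86 (SD, n = 3). In the fit with limma across 16589 genes, mutants differed from wild types by -0.05 ± 0.23 (log2 difference ± SE, adjusted p = 1.00 by limma) under vehicle and by 0.06 ± 0.21 under TAK-418 (adjusted p = 0.983 by limma). TAK-418 minus vehicle was -0.06 ± 0.23 in mutants and -0.17 ± 0.21 in wild types (adjusted p = 1.00 and 0.827 by limma).

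Hist1h2bc, a core H2B gene, was assembled with the annotated splice and without a stem-loop. Its annotated transcript (chr13:23684199-23692908, + strand) has a first exon with the whole coding sequence, which ends at position 23684621, 9 bases after the stop codon. That is closer than the nearest stem-loop start seen in any member, 21 bases after the stop codon. An intron of 7554 bases leads to the second exon, which starts at 23692176. This junction was in the assembly of all 14 libraries, and the assembled transcripts ended between 23692355 and 23692361, inside the annotated second exon.

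Hist1h2be was spliced on its 5′ side. In all 14 libraries a transcript joined an upstream exon starting at 23620916 on chromosome 13, within the 3′ part of the Hist1h1e gene, to the exon that holds the Hist1h2be coding sequence, which ended at 23585970 in 12 libraries. Both genes lie on the minus strand, and this junction is annotated. In 10 libraries the transcript ran past the Hist1h2be stem-loop. The upstream end reached beyond the Hist1h1e stem-loop in 3 libraries. With spliced transcripts counted only where they share an annotated intron, Hist1h2be had a scaled abundance of 1.58, 4.03 and 1.63 in wild-type vehicle. It was at 2.18, 1.74 and 4.79 in mutant vehicle. Under TAK-418 it was at 2.46, 4.47, 4.21, 4.39 and 5.07 in wild types and 1.39, 7.35 and 3.07 in mutants. In 4 libraries the sum includes a single-exon transcript over the upstream exon alone, with a deposited abundance of 0.282 to 0.687. They were wild-type vehicle replicate 2, wild-type TAK-418 replicates 1 and 2 and mutant TAK-418 replicate 1. The groups overlapped. Wild-type vehicle replicates 1 and 3 also held a transcript that joins the same coding exon to another upstream exon, at 23591077, which is not annotated, with abundances of 2.31 and 6.86. Counting these, wild-type vehicle came to 3.94, 4.03 and 8.11, and the groups still overlapped. TAK-418 minus vehicle in wild types was 0.65 ± 0.40 without them and -0.28 ± 0.39 with them (log2 difference ± SE, adjusted p = 0.677 and 0.849 by limma), so its direction rests on how these transcripts are assigned.

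Hist3h2a was read through into its neighbour. In each of the 14 libraries a transcript of 7 exons started between positions 58954745 and 58954762 on chromosome 11, at Hist3h2a, and ended within Trim17, at 58972606 to 58972941. GENCODE annotates such a Trim17 transcript, whose first exon holds Hist3h2a. Its abundance was 19.9, 20.6 and 19.4 in wild-type vehicle, 15.2, 19.3 and 19.3 in mutant vehicle, 19.6, 5.94, 20.1, 4.38 and 21.01 in wild-type TAK-418 and 18.2, 4.56 and 20.2 in mutant TAK-418 libraries. The 3 libraries lowest in it, wild-type TAK-418 replicates 2 and 4 and mutant TAK-418 replicate 2, lay at 4.38 to 5.94 and the others at 15.2 to 21.01, and the groups overlapped. In these 3, another transcript with the same start carried the larger abundance, at 37.5 with 2 exons, 13.5 with 1 exon and 35.3 with 1 exon in that order, so the lower values cannot be read as a lower level of the locus. The deposited value of the joint locus cannot be divided between both genes.

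Most unspliced transcripts of members ran past the stem-loop, and some stopped short of it. All 13 transcripts of Hist1h1c covered it and ended 668 to 840 bases beyond it, where the annotated end is at 840. All 9 of Hist3h2ba covered it and ended 71 to 221 bases beyond, with the annotated end at 169. The single transcript of Hist2h4 ended 1315 bases beyond, and that of Hist1h4h, in wild-type TAK-418 replicate 5, ended 26 bases beyond. The 4 of Hist1h2bg and the 1 of Hist1h2ae did not cover it, and the 1 of Hist1h3d began beyond it. The 4 single-exon transcripts counted to Hist1h2be lay on its upstream exon, away from its stem-loop. Hist3h2ba was listed in 9 libraries as an isolated transcript at an abundance of 0.406 to 0.989, and as such in none of the wild-type vehicle libraries, although the deposited value of that group was 30.5 FPKM. Wild-type vehicle replicate 3 held a transcript of 2 exons on it (58948048 to 58949374) at an abundance of 25.3, whose intron is not annotated and which was therefore not counted.

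By limma, 6 members had values in at least 3 libraries and were tested (Hist1h1c, Hist1h2bc, Hist1h2be, Hist1h2bg, Hist2h2be and Hist3h2ba), and none passed an adjusted p of 0.05 in any of 7 contrasts. The share of all 16589 genes that passed was 0% for genotype under vehicle, for TAK-418 in wild types and for mutant vehicle against wild-type TAK-418. It was 0.00603% for TAK-418 in mutants, for mutant TAK-418 against wild-type vehicle and for the interaction, and 0.0121% for genotype under TAK-418. At an unadjusted p under 0.05, 1 of the 6 members was listed in 2 contrasts. This was Hist3h2ba, which had no assigned transcript in the 3 wild-type vehicle libraries. It was listed at 0, 0.805, 0.833, 0.952 and 0.876 in the wild-type TAK-418 libraries (adjusted p = 0.453 by limma), where 8.46% of all genes passed that unadjusted threshold. In the mutant TAK-418 libraries it was at 0.969, 0.927 and 0.610 (adjusted p = 0.767 by limma against wild-type vehicle), where 5.41% did. Both rest on its isolated transcripts and on leaving out the unannotated transcript of wild-type vehicle replicate 3. With that transcript counted, the differences turned to -0.82 ± 0.87 and -0.65 ± 0.97 (log2 difference ± SE, adjusted p = 0.798 and 0.995 by limma). The deposited FPKM of the wild-type groups was 30.5 under vehicle and 30.1 under TAK-418. In the other contrasts 0 of 6 were listed, where the share of all genes was 5.49% for genotype under vehicle, 4.38% for TAK-418 in mutants, 4.96% for genotype under TAK-418, 9.24% for mutant vehicle against wild-type TAK-418 and 4.44% for the interaction. The member with the smallest p in these was Hist3h2ba for genotype under vehicle (adjusted p = 0.928 by limma) and Hist1h2be for mutant vehicle against wild-type TAK-418 (adjusted p = 0.7099 by limma). It was Hist2h2be for the other 3, through a single library, mutant TAK-418 replicate 1, at 5.30 against 0 to 0.164 in the other 13 (adjusted p = 0.921 by limma for genotype under TAK-418).

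The machinery that makes and controls histone mRNA was present in every group and did not pass the test. Of a list of 24 such genes, 23 loci were tested in each of the authors' deposited tables and 0 were called in either direction. By limma 22 of the genes were tested and 0 were called in any contrast, where at most 0.0121% of all genes passed per contrast. At an unadjusted p under 0.05, 4 were listed in some contrast. For all genes that share was computed only per contrast, at 4.38% to 9.24%. Slbp was at 11.9 FPKM in wild-type vehicle, 12.03 in mutant vehicle, 11.5 in wild-type TAK-418 and 11.7 in mutant TAK-418. Npat, the coactivator of histone gene transcription, was at 5.64, 5.05, 5.40 and 5.26 FPKM, and Casp8ap2, a histone locus body protein, at 3.03, 2.96, 3.36 and 3.23. Of the U7 snRNP proteins, Lsm11 was at 10.3, 10.8, 11.9 and 11.2 FPKM, and Lsm10, which shares its locus with 3 other genes, had a scaled abundance of 0 to 7.17 over the libraries. The locus of Hinfp, the H4 promoter factor, was at 7.34, 7.11, 7.28 and 7.70 FPKM.

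Of genes used as markers of dividing cells, the proliferation marker Mki67 was at 0.607 FPKM in wild-type vehicle, 0.641 in mutant vehicle, 0.720 in wild-type TAK-418 and 0.661 in mutant TAK-418, and the locus of Top2a at 1.12, 1.18, 1.31 and 1.30. The libraries gave another order for Top2a, with a scaled abundance of 2.27 to 3.90 in wild-type vehicle and 2.15 to 6.19 in mutant vehicle. Under TAK-418 Top2a was at 1.14 to 2.58 in wild types and 1.95 to 3.35 in mutants. The groups overlapped, as they did for Mki67. Of the 21 tested loci of a list of 22 genes, 0 passed a q-value of 0.05 for the vehicle pair and 1 did for the TAK-418 pair, by the authors' deposited tables. This was Tyms, thymidylate synthase, which was higher in mutants in the authors' deposited table (5.09 FPKM in wild types and 7.45 in mutants, q = 0.0240), with 7.73 and 7.33 FPKM under vehicle. By limma 0 of the 22 were called in any contrast, with 2 at an unadjusted p under 0.05 in some contrast. The share of all genes listed in some contrast was not computed, and in single contrasts it was 4.38% to 9.24%. Per library the 22 genes summed to 227 to 459 in wild-type vehicle and 182 to 569 in mutant vehicle. Under TAK-418 they summed to 103 to 448 in wild types and 182 to 203 in mutants. The highest sum was that of mutant vehicle replicate 1. The 12 loci of replacement histone genes gave 0 calls in each of the authors' deposited tables, and their sum was 590 FPKM in wild-type vehicle, 593 in mutant vehicle, 573 in wild-type TAK-418 and 599 in mutant TAK-418.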

How the data were processed

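RNA-seq of hippocampus was measured in 14 libraries. Reads were processed with TopHat2 2.1.0 on mm10, per the submitters' processing notes, and per the file headers CLASS 2.1.7 assembled the transcripts. The 4 tables that the authors deposited give 1 FPKM per group and locus, with the log2 ratio, p-value and q-value of the authors' own test. They were normalized separately and are used as they stand. The transcript files that the authors deposited give an abundance score per assembled transcript. How the authors divided reads among near-identical copies is not given in the sources used here.

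Abundance was summed per gene of GENCODE M21. Spliced transcripts were joined to a gene by a shared annotated intron, so that those with none were left out, and single-exon transcripts by at least 50% of their length on its exons, ignoring strand. Values were scaled by the median of ratios, and log2(scaled abundance + 0.9) was fitted with limma 3.58.1 in R 4.3.3, with 4 group means, for genes with a value in at least 3 libraries and a threshold of 0.05 after Benjamini-Hochberg adjustment. Fold changes are on that log2 scale and understate changes of low genes. On simulated data for genotype under vehicle (16589 genes), the fit called 72% of the genes given a log2 change of 1 and 88% of those given 2, and 11 unchanged genes of that simulation were called wrongly. The changed genes were drawn from all genes and given normal noise, so these shares need not hold for the tested members. With spliced transcripts of no annotated intron counted, the SE of that contrast was 1.34 for Hist1h1c and 1.40 for Hist1h2bg. Other steps used Python 3.11.15. Depth is relative, from steps between low values. Replicate numbers do not pair mice.

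The members and lists were chosen with earlier results of these data known. Named were members with a value in all libraries or past a threshold, the 3 highest per class in the vehicle table with loci of 1 symbol first, the member with the smallest p per contrast, and fixed genes of the lists; other names were chosen after their values were seen. No marker of microglia, oligodendrocyte precursors, newborn neurons or endothelium was called in any deposited table. Of 3 erythroid loci, 2 were higher in mutant vehicle than in wild-type TAK-418 in the authors' deposited table. Of 8 choroid plexus loci, the authors' deposited tables called 2 higher in mutants for TAK-418, 5 lower in mutant TAK-418 than in wild-type vehicle and 6 higher in mutant vehicle than in wild-type TAK-418. Stem-loops were searched in annotated transcripts alone; the 100 bases after them were not analysed here.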

Additional observations from a re-analysis of the deposited data

Results flagged for a closer look

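The scaled abundance of Hist1h2bc in wild-type TAK-418 replicate 1 was 37.3, the lowest of the 5 libraries of its group, and the next value was 67.4. Its gap to that value was 0.712 of the group's range, just past Dixon's critical value of 0.71, which chance passes in about 1 of 20 groups. The same library is the deepest, at 168 M. Hist1h2be was also lowest there among the 5, at 2.46 with a gap of 0.669, which does not pass.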

How the results depend on the processing

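No paired analysis was possible because the replicate numbers follow the order of deposition. Under 28 alternatives for each of 7 contrasts, 14 of them leaving out 1 library and 3 added after seeing the data, 0 of 2 to 14 tested members passed limma's adjusted threshold. Over all genes, 0 to 17 passed it in these fits, so a count of 0 says little about the members. At an unadjusted p under 0.05, the authors' deposited tables listed 2 member loci for the vehicle pair, 1 for mutant TAK-418 against wild-type vehicle and 1 for mutant vehicle against wild-type TAK-418. The log2 difference of Hist1h2bc lay between -0.24 and 0.22 throughout, with a smallest adjusted p of 0.755 by limma. It changed sign in 9 of 196 values, for which the cause was not tested. Leaving out 1 library at a time gave -0.164 to 0.031 for genotype under vehicle, -0.143 to 0.053 for TAK-418 in mutants, -0.240 to 0.030 for TAK-418 in wild types, -0.140 to 0.129 for genotype under TAK-418, -0.076 to 0.198 for mutant vehicle against wild-type TAK-418 and -0.094 to 0.2204 for the interaction, and the sign changed in 7 of these: without wild-type vehicle replicate 1 or mutant vehicle replicate 2 for genotype under vehicle, without mutant vehicle replicate 1 for TAK-418 in mutants, and without wild-type TAK-418 replicate 1 for the last 4. Without both libraries high in RNAs without a poly(A) tail, TAK-418 in mutants was 0.0024, and with no scaling genotype under TAK-418 was -0.035. With spliced transcripts of no annotated intron counted, TAK-418 minus vehicle in wild types turned to -0.28 for Hist1h2be. The low loci could not be recomputed without single libraries, since the tables pool each group.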
